A study of Mus musculus and Acomys cahirinus with 84 samples.

Results

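The 10 genes described here encode the kinase ATM, the proteins that read its signal at a DNA double-strand break, and the core machinery of non-homologous end joining: Atm, Trp53bp1, Rif1, Xrcc5, Xrcc6, Prkdc, Dclre1c, Xrcc4, Lig4 and Nhej1. They were chosen by name for these known roles and not by a rule on their values, though earlier results of these data were known. All 10 were found once in each count table, among 56980 mouse gene identifiers and 19818 gene names of the African spiny mouse, Acomys cahirinus. All 10 also passed the filter on low counts in each of the 34 comparisons made.

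Ionizing radiation breaks both strands of DNA. The MRN complex binds the broken ends and activates ATM, which phosphorylates histone H2AX and the checkpoint and repair proteins around the break, among them p53. The protein 53BP1, encoded by Trp53bp1, then binds the marked chromatin and recruits RIF1, and together they hold back the trimming of the ends, which favours their direct ligation over recombination. In non-homologous end joining the ring of Ku70 (Xrcc6) and Ku80 (Xrcc5) slides onto each end and recruits DNA-PKcs (Prkdc), the nuclease Artemis (Dclre1c) opens or trims ends that cannot be joined as they are, and DNA ligase IV (Lig4) with XRCC4 and XLF (Nhej1) seals them. This pathway works throughout the cell cycle and is the main route of repair in cells that do not divide, and its proteins act mostly through recruitment and phosphorylation at the break.

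The series profiled primary skin fibroblasts of 3 populations by RNA sequencing of stranded mRNA libraries from polyA RNA: mice labelled C56BL6, wild mice and A. cahirinus, a rodent of another genus. Each population had untreated cells and cells given 10 or 20 Gy of gamma radiation, collected 24 h later, the same 3 treatments at 12 d, and a further untreated group in the 12 d series labelled passaged. That makes 7 groups of 4 libraries per population and 84 libraries in all. No genetic modification is labelled in any group, and the labels give neither age nor sex. Libraries with the same replicate number in a population carry the same animal code in their names. By these codes each number stands for 1 animal whose cells received every treatment, though the wild 12 d libraries of number 1 go against theirs (below). Each result is given without and, where it changes the call, with a term for the animal, called the replicate block. By the labels the 24 h libraries form one batch and the 12 d libraries another. Time and batch therefore cannot be told apart, and values were compared within each time. In such bulk RNA, fewer cells of a type and less RNA per cell cannot be told apart either.

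Libraries held 17.42 to 52.86 M counts, and levels are given in counts per M (CPM). Fibroblast markers were present in every library, with a summed level of 8 genes between 8100 and 82800 CPM. Summed markers of muscle reached 1430 CPM in wild mice and lay between 502 and 2700 CPM in A. cahirinus, and those of keratinocytes reached 976 CPM in C56BL6 mice. None of the listed markers was at 0 in every library, and the part of such cells in the results was not tested. Some libraries stood apart. The 24 h, 10 Gy library of wild replicate 1 deviated from the other 3 of its group by gene length, with a median log2 ratio of 1.42 for genes under 1000 bp and -0.81 for genes of 8000 bp or more. In it Atm measured 1.98 CPM against 16.8 to 20.4 in the other 3, Rif1 1.84 against 13.5 to 23.1, and Nhej1, the shortest of the 10 genes, 10.2 against 4.19 to 5.15. For comparisons with this group, the calls, and the values of Atm and Rif1 against untreated cells, are given with and without that library. So are some of the correlations over wild libraries. The values of the other members without it are not given. The 12 d libraries of wild numbers 1 and 4 had 0 genes on in all libraries of one number and off in all of the other, as had 12 d number 1 and 24 h number 4, whereas 24 h and 12 d number 1 differed in 17 such genes. The 12 d libraries labelled wild replicate 1 therefore go against their label. C56BL6 numbers 3 and 4 also had 0 such genes between them, at 24 h, at 12 d and across the times. They differed by 7.96 to 18.8 chi-square per gene within groups. Every pair of A. cahirinus numbers had 0 such genes too. The count of such genes therefore cannot tell these animals apart. In the wild 12 d groups, numbers 1 and 4 differed by 21.6 to 36.6 chi-square per gene and all other pairs by 92.9 to 573. If numbers 1 and 4 are of 1 animal there, each wild group at 12 d holds fewer animals than libraries, which was not tested. The wild comparisons at 12 d and their differences from other populations are given with and without number 1. In A. cahirinus at 12 d and 20 Gy, number 2 differed from the other 3 libraries by 267 to 365 chi-square per gene, where the others differed among themselves by 25.8 to 38.3. In untreated C56BL6 cells at 12 d the same measure was 174 to 273 for number 1 and 17.5 to 71.1 among the other 3. These numbers also stood apart in every other group of their population. In untreated A. cahirinus cells at 24 h the measure was 85.3 to 177 for number 2 and 16.7 to 62.1 among the others. In C56BL6 cells at 24 h and 20 Gy it was 68.6 to 82.9 for number 1 and 12.5 to 38.2 among the others.

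**Figure D1:**
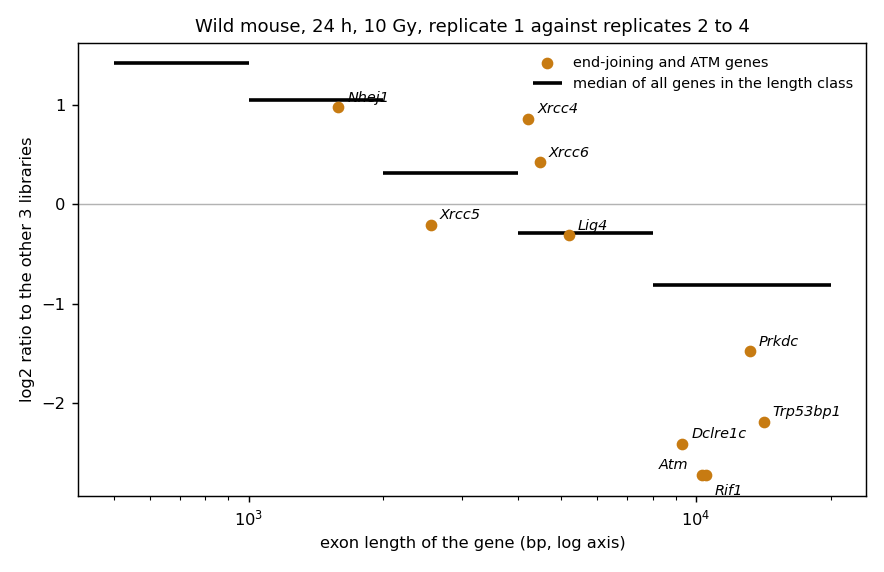
Log2 ratio of CPM in wild mouse replicate 1 at 24 h and 10 Gy to the other 3 libraries of the group (vertical axis) against exon length in bp (log axis); points are the 10 genes and black lines the median of all genes per length class. The 5 longest of the 10 genes lie at -1.48 or below and Nhej1, the shortest, at 0.98, and the length medians fall from 1.42 to -0.81.

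Levels of the 10 genes spanned more than an order of magnitude per length. In untreated C56BL6 cells at 24 h the Ku genes led, Xrcc5 at 12.1 and Xrcc6 at 8.01 CPM per kb of exon (means, n = 4). Trp53bp1, Lig4, Rif1, Nhej1 and Atm followed with means between 2.39 and 3.14 CPM per kb. Below them came Xrcc4 at 1.85, Prkdc, which encodes the very large catalytic subunit, at 1.49, and Dclre1c at 0.779 CPM per kb. Neighbours in this order overlapped in most cases: the Xrcc5 libraries ranged from 10.2 to 14.1 CPM per kb and the Xrcc6 libraries from 6.73 to 10.4. In untreated A. cahirinus cells at 24 h Xrcc6 led at 24.8 ± 2.88 (SD, n = 4) CPM per kb and Xrcc5 followed at 12.9 ± 1.42 (SD, n = 4), with no overlap of their libraries. Dclre1c was lowest there too, at 0.783 CPM per kb. The annotated lengths differ between the tables (Xrcc4 has 4213 bp of exon in the mouse and 2183 in A. cahirinus), so levels were not tested between the species. Between untreated wild and C56BL6 cells none of the 10 genes differed at either time, where 5.7% of all genes tested differed at 24 h and 2.93% at 12 d. None of the 10 had an unadjusted p under 0.05 by edgeR in either of these comparisons, nor at 12 d without wild number 1, where 266 of 14565 genes differed.

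**Figure D2:**
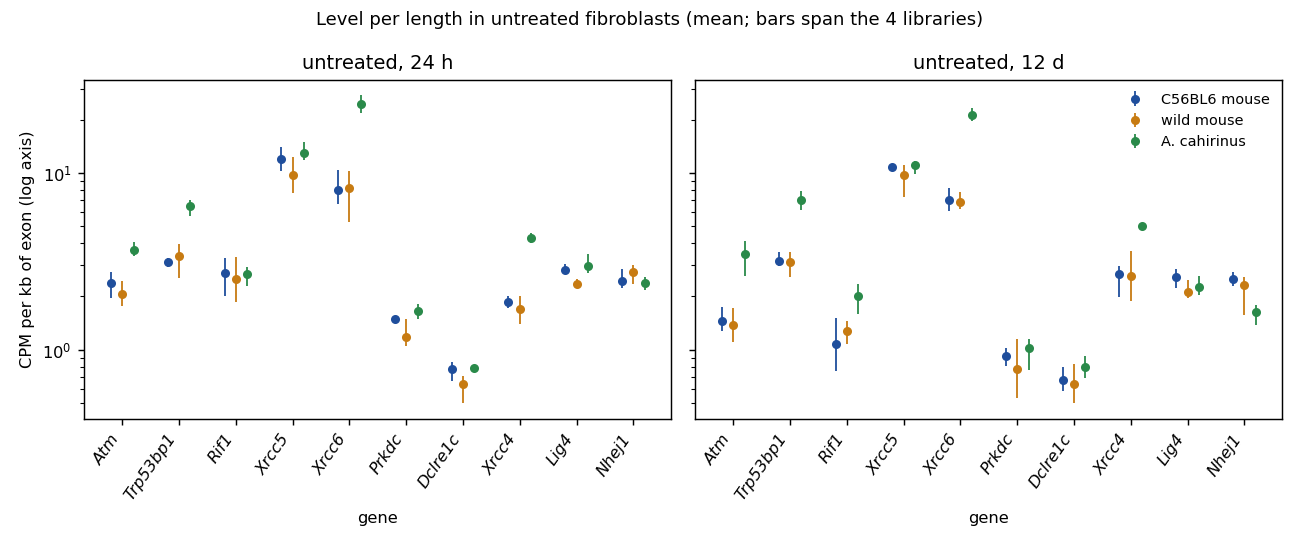
Mean CPM per kb of exon (log axis) of each gene in untreated cells at 24 h (left) and 12 d (right), 4 libraries per population, with bars from the lowest to the highest library. The Ku genes Xrcc5 and Xrcc6 are highest and Dclre1c lowest or among the lowest in all 3 populations.

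The sequence before the start of transcription is shown for 4 of the members with calls below and an entry in the table. Xrcc6, Atm and Xrcc5 were lower in irradiated than in passaged cells of at least 1 population. Xrcc4 was lower in passaged than in untreated cells. Trp53bp1, Lig4 and Nhej1 also had calls and an entry and are not shown. Each line gives the 250 bases before the RefSeq start (RefSeq table of GRCm38.p6), on the gene's own strand, with searched words in capitals. All were found once in GRCm39, at chr15:81900320-81900569 (plus strand) for Xrcc6, chr9:53447972-53448221 (minus strand) for Atm, chr1:72346330-72346579 (plus strand) for Xrcc5 and chr13:90237728-90237977 (minus strand) for Xrcc4. The Xrcc6 window lies inside the Xrcc6 gene as counted, which spans chr15:81872036-81924286, so its RefSeq start is not the first base of that gene. The Atm window overlaps the Atm gene as counted, whose first base on its strand is chr9:53448040. The RefSeq start of Atm therefore lies inside that gene as well.
Xrcc6: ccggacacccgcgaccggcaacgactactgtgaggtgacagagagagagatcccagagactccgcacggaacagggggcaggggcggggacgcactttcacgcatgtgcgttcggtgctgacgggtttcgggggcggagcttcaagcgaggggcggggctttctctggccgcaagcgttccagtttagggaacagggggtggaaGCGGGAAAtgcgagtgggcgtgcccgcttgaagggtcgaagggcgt
Atm: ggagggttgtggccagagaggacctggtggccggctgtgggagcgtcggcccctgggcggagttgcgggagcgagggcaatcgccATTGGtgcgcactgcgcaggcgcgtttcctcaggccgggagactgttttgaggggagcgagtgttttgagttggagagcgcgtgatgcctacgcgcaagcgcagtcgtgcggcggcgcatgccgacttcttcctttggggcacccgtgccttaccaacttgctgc
Xrcc5: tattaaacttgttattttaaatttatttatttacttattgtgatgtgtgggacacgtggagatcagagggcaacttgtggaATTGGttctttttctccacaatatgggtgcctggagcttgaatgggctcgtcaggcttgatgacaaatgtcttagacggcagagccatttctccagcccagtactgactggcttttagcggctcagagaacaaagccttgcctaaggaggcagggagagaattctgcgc
Xrcc4: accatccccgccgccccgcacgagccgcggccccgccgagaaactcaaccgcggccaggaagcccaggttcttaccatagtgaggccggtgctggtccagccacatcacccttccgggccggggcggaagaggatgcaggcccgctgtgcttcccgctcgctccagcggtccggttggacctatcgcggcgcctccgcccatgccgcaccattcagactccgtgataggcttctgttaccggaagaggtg

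The words searched on both strands of the 300-base windows (250 before to 50 after the start) were the E2F words TTTCGCGC, TTTGGCGC, TTTCCCGC and TTTGCCGC, found in 2.26% of 32851 windows of the table, CCAAT, found in 37.4%, and TTTGAA, found in 17.9%. No words found in the members' windows overlapped each other. Of the 10 genes 8 had an entry, with 9 windows, since Lig4 has 2; Prkdc and Rif1 had none. Xrcc6 was the one member with an E2F word, TTTCCCGC on the other strand, which reads GCGGGAAA as printed and starts 46 bases before the start. CCAAT, read as ATTGG on the printed strand, was found in Atm and Xrcc5 before the start and also in Dclre1c and, after the start, in Xrcc6. The windows of Xrcc4, Trp53bp1, Lig4 and Nhej1 held 0 of the searched words. The printed windows of Atm, Xrcc4 and Xrcc6 hold 65.2 to 68% G or C and that of Xrcc5 44.8%. These matches describe letters and no binding was measured.

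The first question was how these genes stood 24 h after irradiation. Of the 10, Rif1 in A. cahirinus was the one that fell without the block. In A. cahirinus, Rif1 measured 36.5, 30.8, 37.7 and 39.5 CPM in untreated cells and 27.1, 19.4, 22.5 and 24.7 CPM at 20 Gy. All 4 irradiated libraries lay below all 4 untreated ones. The change was -0.61 ± 0.118 (SE) on the log2 scale, 1.52-fold lower, at an adjusted p of 0.0271, and Rif1 was the single member called, where 3.59% of all genes were. The replicate block gave a log2 change of -0.61 with an adjusted p of 0.000234. Without the block the call was lost when replicate 1, 3 or 4 was left out (log2 -0.68 to -0.57, adjusted p up to 0.297). At 10 Gy, which shares the untreated libraries, Rif1 measured 24.7, 18.6, 25.5 and 28.7 CPM, again all below the untreated ones. Its change of -0.55 ± 0.135 (SE) had an adjusted p of 0.0657, and of 3.58e-05 with the block, where edgeR called 0 members without the block against 3.73% of all genes (1 at an unadjusted p under 0.05) and DESeq2 called 1, Rif1. With the block 2 members were called against 27.6% of all genes: Rif1, and Prkdc at -0.26 ± 0.0723 (SE), adjusted p 0.018.

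In the mice Rif1 was lower at 20 Gy in all 4 pairs, but the groups overlapped. In C56BL6 cells its levels were 34.8, 21.2, 32.2 and 26.1 CPM untreated and 30.1, 19.1, 25.4 and 21.7 CPM at 20 Gy. The log2 change was -0.25 ± 0.187 (SE), adjusted p 0.753, and with the block -0.24 ± 0.0597 (SE), adjusted p 0.0125. In wild cells the levels were 19.6, 21.3, 35 and 29.8 CPM untreated and 16.2, 16.2, 23.2 and 15 CPM at 20 Gy. The log2 change was -0.57 ± 0.221 (SE), adjusted p 0.758, and with the block -0.55 ± 0.117 (SE), adjusted p 0.0113. Wild Xrcc6, the Ku70 gene, was also called with the block at 20 Gy (log2 -0.39 ± 0.108 (SE), adjusted p 0.0369). Without the block edgeR called 0 of the 10 members in C56BL6 cells, where 0.0895% of all genes were called, and 0 in wild cells, where 0% were. At an unadjusted p under 0.05 there was 1 member in each. With the block the background was 17.6% in C56BL6 and 12.5% in wild cells.

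At 10 Gy and 24 h edgeR called 0 members in C56BL6 cells, with and without the block (background 0.007%, and 11.5% with the block; 0 and 1 members at an unadjusted p under 0.05), and Rif1 had a log2 change of -0.21. In wild cells 0 members were called with or without the block, where 0% of all genes were called in either fit and no member had an unadjusted p under 0.05. Leaving out the wild library that stood apart moved Atm from -0.54 to -0.18 on the log2 scale and Rif1 from -0.89 to -0.53, with no call. Leaving out the whole of number 1 with the block called Rif1 (log2 -0.64, adjusted p 0.000547) and Xrcc6 (log2 -0.47, adjusted p 0.00202). Between 20 and 10 Gy at 24 h edgeR called 0 members in each population, with and without the block, where 0% of all genes were called without it and 1.44%, 0% and 0.302% with it in C56BL6, wild and A. cahirinus cells. No member had an unadjusted p under 0.05 in these 3 comparisons without the block. In wild cells 0 members were also called without the library that stood apart, and 0 with the block and without number 1, where 283 of 14620 genes were. Wherever a comparison in the text has 0 members called by edgeR without the block, DESeq2 called 0 as well, except where its count is given.

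The other members had small 24 h values. At 20 Gy, leaving out Rif1, log2 changes ran from -0.14 (Nhej1) to 0.22 (Prkdc) in C56BL6 cells, from -0.39 (Xrcc6) to 0.14 (Lig4) in wild cells and from -0.22 (Prkdc) to 0.17 (Dclre1c) in A. cahirinus. The median over the 10 genes was -0.05, 0.07 and -0.02 in the 3 populations, against -0.01, 0.01 and 0.03 over all genes tested. Atm, the kinase that starts the signal, measured 47.7, 39.6, 44.9 and 40.8 CPM in untreated A. cahirinus cells and 48.1, 33, 36.2 and 37.9 CPM at 20 Gy. These groups overlapped and the adjusted p was 0.622. Trp53bp1 likewise stood at 41.3 to 46.7 CPM untreated and 44.7 to 48.4 CPM at 20 Gy in C56BL6 cells. Of its exon bases 15% in the mouse annotation and 19.5% in that of A. cahirinus are shared with Tubgcp4, so its counts are uncertain to that extent.

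Targets of p53, which ATM activates, rose at this time. With the block, 6 of 8 listed targets were higher at 20 Gy in C56BL6 cells, 7 of 8 in wild cells and 8 of 8 in A. cahirinus, where 8.2%, 7.36% and 13.3% of all genes were higher. Without it the counts were 2, 0 and 7, where 0.0826%, 0% and 0.89% of all genes were higher. Cdkn1a, the inhibitor of cyclin-dependent kinases, had log2 changes of 0.47, 1.16 and 1.3, and its 4 irradiated libraries in A. cahirinus measured 755 to 809 CPM against 269 to 384 CPM untreated. Of 15 proliferation genes, 13 were lower in A. cahirinus at 20 Gy (15 with the block), 0 in wild cells (7 with the block) and 0 in C56BL6 cells (2 lower and 2 higher with the block). Of all genes 2.7% were lower in A. cahirinus (10.8% with the block), and with the block 5.19% in wild and 9.45% in C56BL6 cells. Mki67, a marker of cycling cells, fell by 1.95 on the log2 scale in A. cahirinus, and had values of -0.81 in wild and -0.14 in C56BL6 cells. Summed endothelial and leukocyte markers in A. cahirinus were at 0.651 to 0.727 and 2.31 to 2.92 CPM untreated and at 1.14 to 1.87 and 3.25 to 4.13 CPM at 20 Gy. The part of cell division and of such cells in the Rif1 values was not tested.

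**Figure D3:**
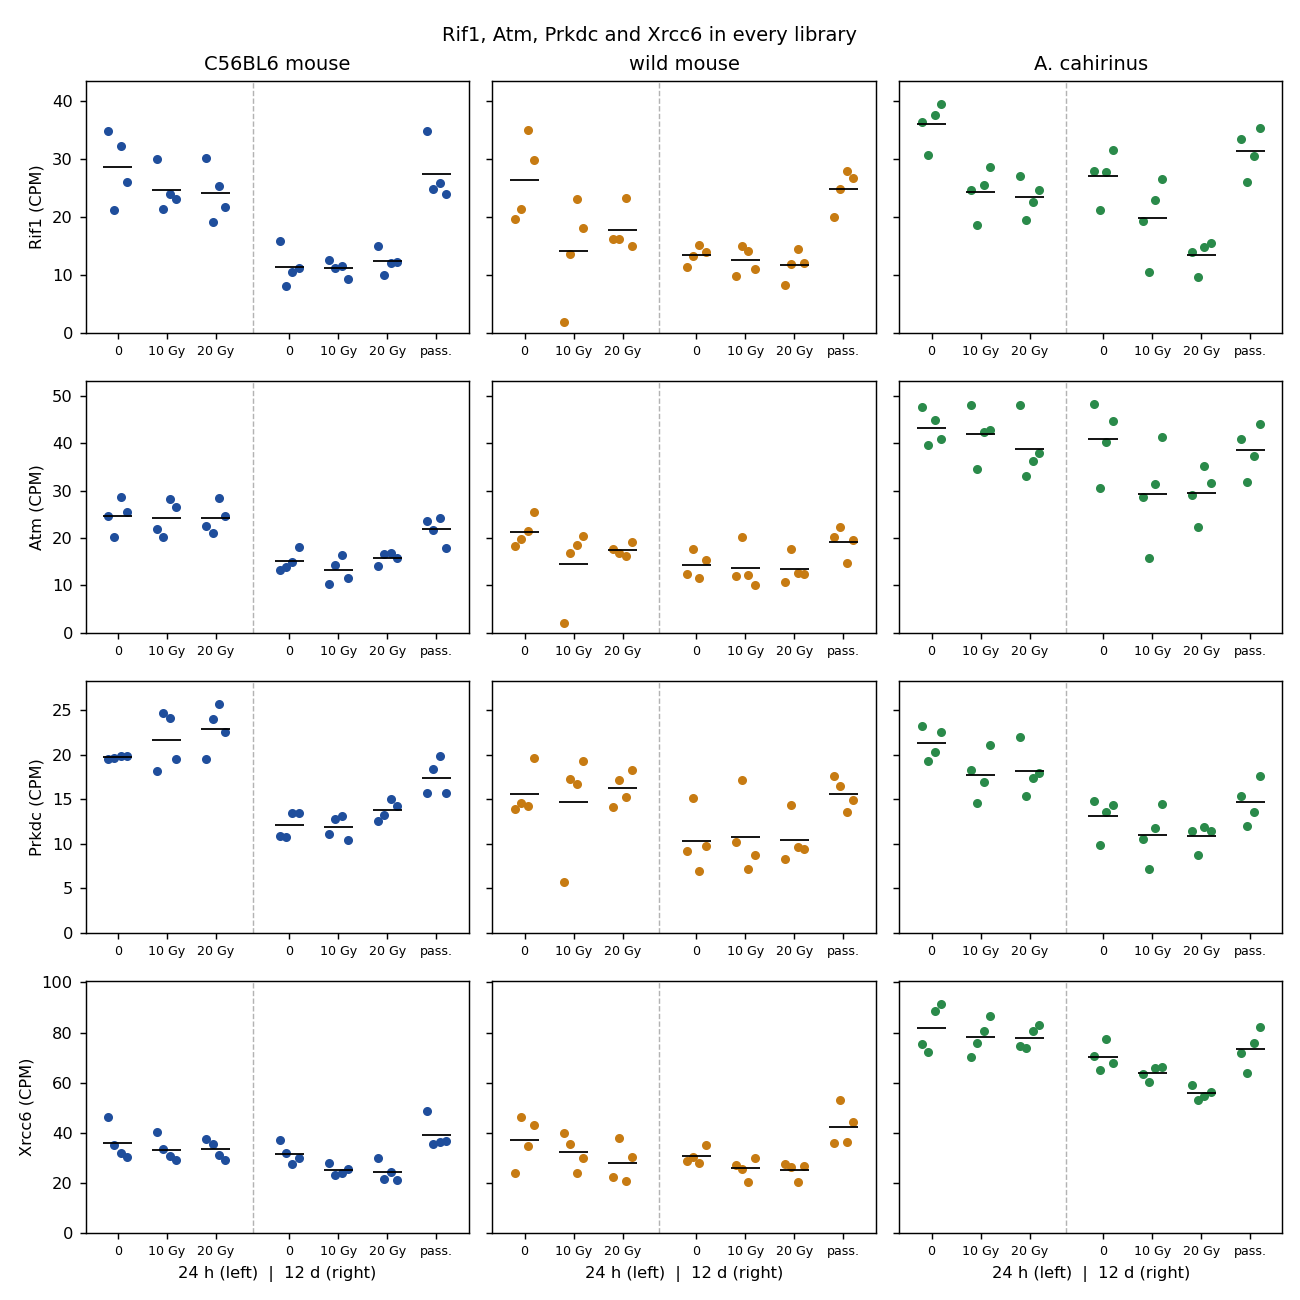
CPM of Rif1, Atm, Prkdc and Xrcc6 in each of the 84 libraries; columns are populations, the 24 h groups are left and the 12 d groups right of the dashed line, points are libraries in the order of replicate number and black lines are group means. Rif1 is lower in all irradiated than in all untreated A. cahirinus libraries at 24 h, and its 12 d mean is highest in the passaged group of each population.

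The same doses were then compared at 12 d. In A. cahirinus at 20 Gy, Rif1 and both Ku genes fell. Rif1 measured 27.9, 21.2, 27.7 and 31.5 CPM in untreated cells and 13.9, 9.62, 14.8 and 15.5 CPM at 20 Gy, with no overlap. Its log2 change was -1 ± 0.176 (SE), adjusted p 0.00396, a 2.01-fold lower level, and the call held when any replicate was left out (adjusted p up to 0.0374). Xrcc5 measured 34.5, 29.2, 34.2 and 32.3 CPM untreated and 26.5, 18, 23 and 25.5 CPM at 20 Gy, again without overlap (log2 -0.48 ± 0.129 (SE), adjusted p 0.023). Xrcc6 measured 70.5, 64.8, 77.4 and 67.7 CPM untreated and 59.2, 53.2, 54.6 and 56.3 CPM at 20 Gy, also without overlap (log2 -0.32 ± 0.0795 (SE), adjusted p 0.0159). Both Ku calls were lost without replicate 1, 3 or 4 (adjusted p up to 0.113 for Xrcc5 and 0.108 for Xrcc6). These 3 of 10 members stood against a background of 31.8% of all genes, so the count itself was near the background.

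With the block, 6 members were called in this comparison against 49.2% of all genes. Atm measured 48.3, 30.6, 40.2 and 44.8 CPM untreated and 29.1, 22.4, 35.1 and 31.6 CPM at 20 Gy. It was lower in 4 of 4 animals while the groups overlapped, with a log2 change of -0.47 in both fits and an adjusted p of 0.0764 without and 0.00754 with the block. Prkdc was at -0.26 ± 0.0912 (SE) with the block (adjusted p 0.0469, and 0.229 without). Nhej1, which encodes the ligase cofactor XLF, went the other way, from 2.63, 2.52, 2.41 and 2.04 CPM untreated to 4.15, 3.07, 3.63 and 2.67 CPM. These groups did not overlap, and the log2 change of 0.5 ± 0.189 (SE) had an adjusted p of 0.0769, and 0.0379 with the block. The median log2 change of the 10 members was -0.2, against 0 over all genes tested (0.0026 before rounding). Without number 2, which stood apart, the block called 6 members as well, against 7601 of 13529 genes. Summed fibroblast markers in A. cahirinus at 12 d were 28800 to 33200 CPM untreated and 18400 to 29500 at 20 Gy, and those of leukocytes 1.26 to 2.25 and 2.95 to 5.62 CPM. The part of such cells in these changes was not tested.

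At 10 Gy in A. cahirinus at 12 d, which shares these untreated libraries, edgeR called 0 members (background 2.87%, and 1 member at an unadjusted p under 0.05), and DESeq2 called 1, Lig4. With the block 3 were called against 27.5% of all genes. Rif1 measured 19.3, 10.4, 23 and 26.6 CPM and Atm 28.6, 15.8, 31.3 and 41.4 CPM, each lower than the untreated library of the same animal (log2 with the block -0.5 ± 0.125 (SE), adjusted p 0.0238, and -0.53 ± 0.129 (SE), adjusted p 0.0218). Lig4, the ligase, measured 8.52, 9.34, 11 and 8.96 CPM untreated and 11.2, 12.7, 12.4 and 12.6 CPM at 10 Gy, a higher value in each animal with no overlap (log2 with the block 0.38 ± 0.1 (SE), adjusted p 0.0275, and 0.111 without). Between 20 and 10 Gy no member was called without the block (background 0.457%, 1 member at an unadjusted p under 0.05). With it Rif1 was lower at 20 Gy (log2 -0.51 ± 0.12 (SE), adjusted p 0.023, background 17.9%). Without number 2 the block called Rif1 (-0.63) and Xrcc5 (-0.29), against 4932 of 13588 genes.

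In the mice fewer members were called at 12 d. In C56BL6 cells at 20 Gy one member, Lig4, was called, against 26.5% of all genes. It measured 13.7, 14.8, 13.8 and 11.6 CPM untreated and 17, 16.7, 17 and 15.1 CPM at 20 Gy, with no overlap (log2 0.32 ± 0.0982 (SE), adjusted p 0.0454). That call was lost when any 1 of the 4 replicates was left out (adjusted p up to 0.197) and in the fit with no expression filter (adjusted p 0.162), and was kept with the block (adjusted p 0.0129). Xrcc6 measured 36.9, 31.9, 27.5 and 29.9 CPM untreated and 29.7, 21.3, 24.4 and 21.1 CPM at 20 Gy. It was lower in every animal, at -0.35 on the log2 scale, with an adjusted p of 0.0985, and 0.0131 with the block, where the background was 47.5%. At 10 Gy the value for Xrcc6 was -0.3 (adjusted p 0.0873, and 0.0211 with the block), the one member called there with the block, and edgeR called 0 without it (background 20.9%, and 38.8% with the block; 1 member at an unadjusted p under 0.05). Without number 1 the block called Lig4, Xrcc6 and Xrcc4 (log2 -0.36) at 20 Gy, against 7941 of 15231 genes. Fibroblast markers also differed between these C56BL6 groups at 12 d. Their sum was 27100 to 49400 CPM untreated, 8340 to 12700 at 20 Gy and 13400 to 23400 in passaged cells. Summed keratinocyte markers ran from 1.52 to 976, 3.41 to 342 and 1.38 to 488 CPM in these groups. Their means were 245, 88.4 and 123 CPM, so 1 library held nearly all of the keratinocyte signal of each group. The part of such cells in the members' changes was not tested.

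Rif1 was not called in the mice. Its C56BL6 levels at 12 d were 15.8, 7.97, 10.5 and 11.2 CPM untreated and 15, 10, 12.1 and 12.2 CPM at 20 Gy, which overlapped (log2 0.15, adjusted p 0.646). In wild cells it measured 11.3, 13.2, 15.2 and 13.9 CPM untreated and 8.15, 11.9, 14.4 and 12 CPM at 20 Gy (log2 -0.18, adjusted p 0.765). No member was called in wild cells at 20 Gy or 10 Gy, with the block or without it. The background there was 0.0694% and 0.264% of all genes, and 15.4% and 12.7% with the block, and by edgeR 1 member reached an unadjusted p under 0.05 at 20 Gy and 0 did at 10 Gy. Without number 1 there was no call either. Between 20 and 10 Gy at 12 d edgeR called 0 members in C56BL6 and in wild cells, where 0% of all genes were called in both, and no member had an unadjusted p under 0.05. With the block the count was also 0, against 0.297% and 0.257%.

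**Figure D4:**
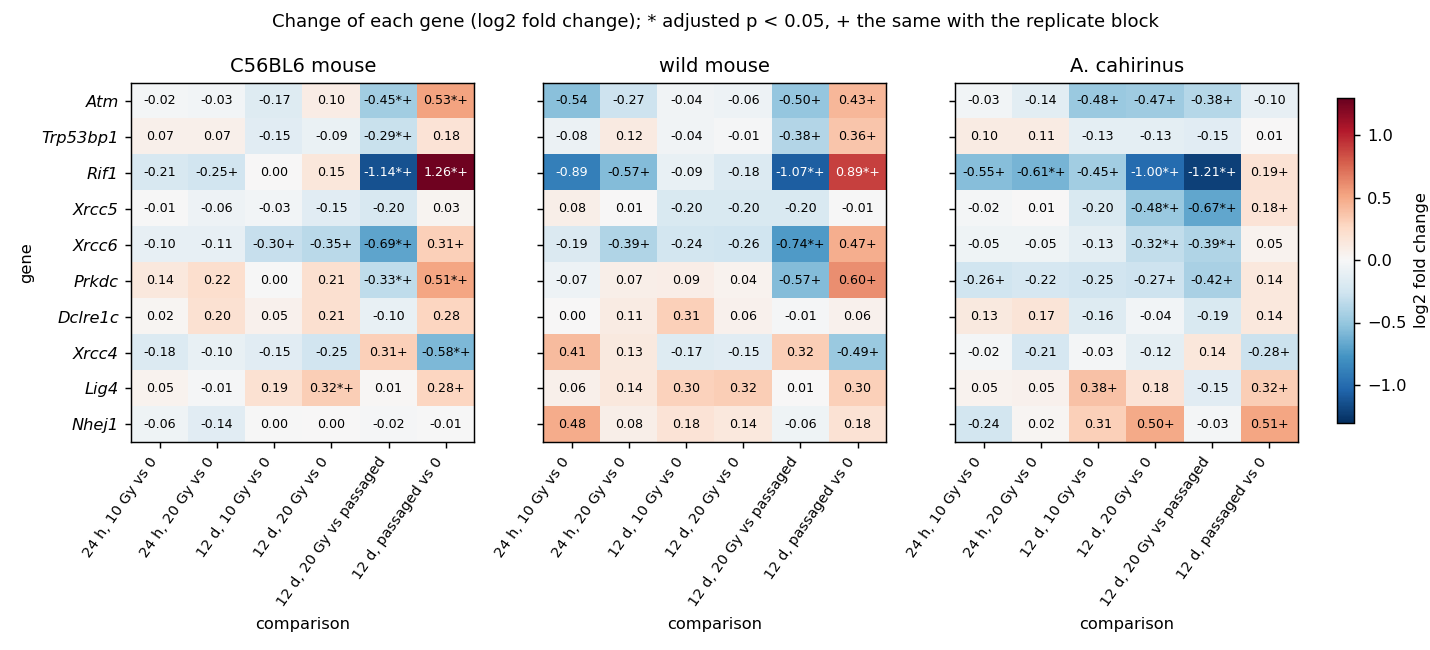
Log2 fold change of each gene (rows) in 6 comparisons (columns) for each population, from red (higher in the first-named group) to blue (lower); an asterisk marks an adjusted p under 0.05 without the block and a plus sign the same with it. Rif1 has the largest changes against passaged cells, from -1.07 to -1.21, and Xrcc4 has the opposite sign in these columns.

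The passaged cells were next compared with the untreated cells of the 12 d series. In C56BL6 cells Mki67 stood at 176 to 229.6 CPM in the passaged and 9.02 to 56.1 CPM in the untreated group. In C56BL6 cells Rif1 measured 34.9, 24.9, 25.9 and 23.9 CPM in passaged cells, all above the untreated 12 d libraries given above. Its log2 change was 1.26 ± 0.219 (SE), adjusted p 0.00234, a 2.4-fold higher level, and the call held when any replicate was left out. Atm measured 23.6, 21.6, 24.2 and 17.9 CPM passaged and 13.2, 14, 15 and 18.1 CPM untreated, higher in 3 of 4 animals (log2 0.53 ± 0.14 (SE), adjusted p 0.0148). Prkdc measured 15.7, 18.4, 19.8 and 15.7 CPM passaged and 10.9, 10.7, 13.5 and 13.5 CPM untreated, with no overlap (log2 0.51 ± 0.131 (SE), adjusted p 0.0126). Xrcc4, the scaffold of the ligase, fell. It measured 6.44, 8.58, 7.45 and 7.94 CPM passaged and 8.36, 12.6, 12.3 and 12.1 CPM untreated (log2 -0.58 ± 0.164 (SE), adjusted p 0.0184), and replicate 1 untreated overlapped the passaged group. The calls of Atm and Prkdc were lost without replicate 2 or 3 and that of Xrcc4 without replicate 2, 3 or 4 (adjusted p up to 0.0931, 0.0867 and 0.112). These 4 members stood against a background of 49.6%. The block added Xrcc6 (log2 0.3, adjusted p 0.0135) and Lig4 (log2 0.28, adjusted p 0.033), against 60.1%.

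Wild cells had the same signs. Rif1 measured 20.1, 24.9, 28 and 26.7 CPM passaged and, as given above, 11.3 to 15.2 CPM untreated, with no overlap (log2 0.89 ± 0.146 (SE), adjusted p 0.0158). It was the one member called, against 10.7% of all genes. Without number 1 the log2 change was 0.9, with an adjusted p of 0.162, and 0.0227 with the block. The call was also lost without number 2 or 4 (adjusted p up to 0.162 over all 4). DESeq2 called 3 members, adding Xrcc6 and Trp53bp1. The block over all 4 numbers called 6 members against 31.9% of all genes: Rif1, Atm (0.43), Prkdc (0.65), Xrcc6 (0.45) and Trp53bp1 (0.36) higher and Xrcc4 (-0.47) lower on the log2 scale, with adjusted p from 0.0026 to 0.0317. With number 1 left out of that fit, Rif1 alone was called, and the other 5 had adjusted p between 0.0797 and 0.148.

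In A. cahirinus Rif1 was not called without the block. It measured 33.4, 26, 30.6 and 35.4 CPM passaged, which overlapped the untreated libraries (log2 0.19 ± 0.128 (SE), adjusted p 0.296, and 0.0266 with the block). No member was called without the block, where 25.8% of all genes were and 4 members had an unadjusted p under 0.05 by edgeR, and DESeq2 called 3 (Lig4, Nhej1 and Xrcc4). With the block 5 were, against 49.5%: Rif1, Xrcc5 (log2 0.18), Lig4 (0.32) and Nhej1 (0.5) higher and Xrcc4 (-0.28) lower, with adjusted p from 0.0215 to 0.0376. Without number 2, which stood apart in every group of A. cahirinus, the block called 2, Lig4 (0.34) and Nhej1 (0.59), against 6357 of 12971 genes. Lig4 measured 12.3, 11.5, 12.5 and 11.4 CPM passaged against 8.52 to 11 CPM untreated, and Xrcc4 8.44, 8.58, 9.59 and 9.97 CPM against 10.6 to 11.5 CPM, neither with overlap. Mki67 was 73.9 to 137 CPM passaged and 49.1 to 70 CPM untreated here.

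Cells 12 d after 20 Gy were then set beside the passaged cells, a comparison that shares its groups with those above. Rif1 was lower in irradiated cells of all 3 populations, without overlap of any libraries: log2 -1.14 ± 0.163 (SE) in C56BL6 (adjusted p 0.00105), -1.07 ± 0.194 (SE) in wild cells (adjusted p 0.0151) and -1.21 ± 0.166 (SE) in A. cahirinus (adjusted p 0.000919). Xrcc6 was lower in all 3 as well, at -0.69, -0.74 and -0.39, with adjusted p of 0.00659, 0.0273 and 0.0112 and no overlap. The Rif1 and Xrcc6 calls in wild cells were lost without number 1, 2 or 4 (adjusted p up to 0.12 and 0.168), and the Xrcc6 call in A. cahirinus without replicate 1, 3 or 4 (adjusted p up to 0.0847). Its C56BL6 levels were 48.5, 35.6, 36.1 and 36.5 CPM passaged and 29.7, 21.3, 24.4 and 21.1 CPM at 20 Gy. Xrcc5 was called in A. cahirinus, at 37.4, 33.2, 38.5 and 40.2 CPM passaged and 26.5, 18, 23 and 25.5 CPM at 20 Gy (log2 -0.67 ± 0.131 (SE), adjusted p 0.0044). The values in C56BL6 and wild cells were -0.2 each, with no call, and the difference between populations in this comparison was not tested.

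Atm, Prkdc and Trp53bp1 completed the C56BL6 list, at -0.45, -0.33 and -0.29 on the log2 scale with adjusted p of 0.0143, 0.0407 and 0.00676. All 3 were free of overlap, and Trp53bp1 measured 48.8, 52.8, 53.8 and 50 CPM passaged and 38.7, 43, 42.9 and 41.8 CPM at 20 Gy. Their calls were each lost without replicate 3, those of Atm and Prkdc also without replicate 2, and that of Prkdc without replicate 4 or with no expression filter (adjusted p 0.0648). In all, 5 members were called in C56BL6 cells, 2 in wild cells and 3 in A. cahirinus, against 41.6%, 10.5% and 42.5% of all genes. With the block the counts were 6, 5 and 5 against 56.1%, 38% and 56%, adding Xrcc4 in C56BL6 cells (log2 0.32, adjusted p 0.0325), Atm, Prkdc and Trp53bp1 in wild cells (log2 -0.5, -0.58 and -0.39, adjusted p from 0.0185 to 0.0219) and Atm and Prkdc in A. cahirinus (log2 -0.38 and -0.42, adjusted p 0.0135 and 0.0143). In wild cells without number 1, the block kept Rif1 (log2 -1.05, adjusted p 0.00205) and Xrcc6 (log2 -0.86, adjusted p 0.00301) and lost the other 3. The median log2 change of the 10 genes was -0.25, -0.29 and -0.28, against 0.01, 0.02 and 0.01 over all genes tested.

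**Figure D5:**
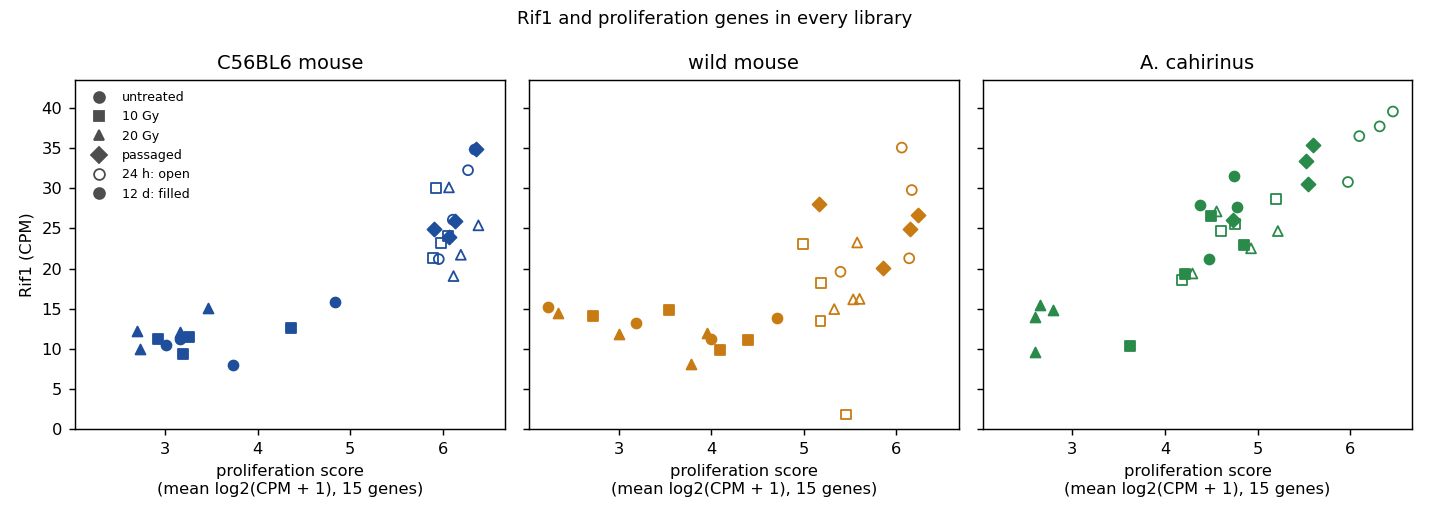
Rif1 in CPM (vertical axis) against the proliferation score, the mean log2(CPM + 1) of 15 cell-cycle genes (horizontal axis), in the 28 libraries of each population; open symbols are 24 h, filled symbols 12 d, and shapes are treatments. Points of C56BL6 fall into a low group, with scores up to 4.84, and a high group, with scores from 5.9, and among A. cahirinus libraries those at 12 d and 20 Gy have the lowest scores, with values of 2.59 to 2.79 and Rif1 of 9.62 to 15.5 CPM.

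The proliferation score varied with several of these members. In the 12 d series its group means were 6.12 passaged, 3.69 untreated and 3.01 at 20 Gy in C56BL6 cells, 5.85, 3.53 and 3.27 in wild cells, and 5.35, 4.59 and 2.66 in A. cahirinus. Over the 28 libraries of a population, after centring on the mean of each time, Pearson's r with the score was 0.852 for Rif1 in C56BL6, 0.374 in wild and 0.893 in A. cahirinus, and 0.781, 0.722 and 0.796 for Xrcc6. For Lig4 it was 0.264, 0.142 and 0.156 and for Nhej1 it was 0.02, -0.05 and -0.02. Xrcc4 had the other sign in the mice, at -0.652 in C56BL6 and -0.47 in wild cells, and 0.179 in A. cahirinus. Xrcc5 had 0.315, 0.1 and 0.763. Values of Atm, Prkdc, Trp53bp1 and Dclre1c lay between 0.0304 and 0.64. In wild cells the value for Rif1 was 0.569 without the library that stood apart and 0.614 without it and the 12 d libraries of number 1, and for Xrcc6 0.739 and 0.749. These are descriptions: libraries of an animal and of a group are not independent. The part of cell division in the members' changes was not tested.

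Whether the populations differed in these responses was tested as an interaction. At 24 h edgeR called 0 members for a difference in the change at 20 Gy without the block (1 and 0 at an unadjusted p under 0.05), where 2.09% of all genes differed between A. cahirinus and C56BL6 cells and 0% between A. cahirinus and wild cells. With the block 2 members differed between A. cahirinus and C56BL6, against 16.8%: Prkdc by -0.44 ± 0.107 (SE) on the log2 scale (adjusted p 0.00912) and Rif1 by -0.38 ± 0.0931 (SE) (adjusted p 0.0108), both lower in A. cahirinus. At 12 d Rif1 differed by -1.16 ± 0.282 (SE) (adjusted p 0.0124), the one member called against 18.8% of all genes, though not without replicate 3 or 4 (adjusted p up to 0.108). The block added Atm (-0.57), Prkdc (-0.48) and Xrcc5 (-0.34), with adjusted p from 0.0104 to 0.0313, against 38%. Between A. cahirinus and wild cells Rif1 differed by -0.81 ± 0.272 (SE) at 12 d (adjusted p 0.113, and 0.00259 with the block). This was the one member called with the block and 0 were called without it, against 23.4% and 3.31% of all genes. Leaving out wild number 1 gave -0.88 (adjusted p 0.105), and -0.89 with the block (adjusted p 0.00389). Mki67 differed in the same direction, by -2.18 on the log2 scale between A. cahirinus and C56BL6 at 12 d and by -1.82 at 24 h. Between wild and C56BL6 cells edgeR called 0 members at either time in either fit, where 0% of all genes were called without and 0.647% (24 h) and 0.101% (12 d) with the block. No member had an unadjusted p under 0.05 without the block. At 12 d 0 members were called in either fit without wild number 1 as well.

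The change from untreated to passaged cells also differed. Between A. cahirinus and C56BL6 cells it was smaller in A. cahirinus for Rif1 by 1.08 ± 0.262 (SE) on the log2 scale (difference -1.08, adjusted p 0.0083) and for Atm by 0.64 ± 0.212 (SE) (difference -0.64, adjusted p 0.0378), against 27.7% of all genes. The Rif1 call was lost without replicate 3 or 4 (adjusted p up to 0.088) and the Atm call without replicate 1, 2 or 3 (adjusted p up to 0.21) and when all groups of the time were fitted together (adjusted p 0.117). Atm in A. cahirinus was at 40.9, 31.9, 37.4 and 44.2 CPM passaged and, as given above, 30.6 to 48.3 CPM untreated, a log2 change of -0.1 that was not called. Between A. cahirinus and wild cells edgeR called 0 members without the block (3.46% of all genes, 4 members at an unadjusted p under 0.05) and DESeq2 called 1, Rif1. With the block Rif1 (-0.69), Atm (-0.52) and Trp53bp1 (-0.35) were, against 23.8%, with adjusted p from 0.00145 to 0.0155. Without wild number 1 the block called the same 3, at -0.71, -0.43 and -0.34, with adjusted p of 0.00508, 0.0338 and 0.0416, and without the block 0 were called.

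Dclre1c was called in none of the 34 comparisons in either fit. Artemis is the nuclease that opens hairpins and trims ends. Its log2 changes at 20 Gy against untreated cells lay between -0.04 and 0.21 over the 3 populations and 2 times, and its untreated 12 d levels were 6.31, 5.46, 5.97 and 7.43 CPM in C56BL6 cells beside 6.7, 6.23, 7.82 and 7.82 CPM at 20 Gy, which overlapped. Nhej1 was called with the block in A. cahirinus at 12 d and nowhere else. Lig4 values at 12 d were positive in all 6 comparisons of 10 or 20 Gy with untreated cells, from 0.18 to 0.38 on the log2 scale. Of these the one in C56BL6 cells at 20 Gy was called without the block, and that and the one in A. cahirinus at 10 Gy with it. Both doses share the untreated libraries of their population. Mean Lig4 was also above untreated in passaged cells, which were not irradiated. In C56BL6 cells the means were 16.45 CPM passaged, 16.45 at 20 Gy and 13.48 untreated. They were 13.73, 13.58 and 11.06 CPM in wild cells and 11.91, 10.66 and 9.44 CPM in A. cahirinus. Between 20 Gy and passaged cells Lig4 was called in no population, with or without the block.

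The genes around this pathway were grouped by role and counted in the same fits. Of 14 genes of break sensing and the ATM relay (13 tested in A. cahirinus), 2 were lower and 0 higher 24 h after 20 Gy in A. cahirinus, where 2.7% of all genes were lower. They were Mdc1 (log2 -0.56), the adaptor that binds phosphorylated H2AX, and Paxip1 (-0.56), which encodes the 53BP1 partner PTIP. In C56BL6 and wild cells 0 were called at 24 h without the block, where 0.0895% and 0% of all genes were at 20 Gy. H2ax itself was lower with the block, at -0.47 and -0.56. At 12 d and 20 Gy 6 were lower and 1 higher in A. cahirinus, where 18.1% of all genes were lower and 13.8% higher. Atr (-0.85), the kinase of single-stranded DNA, led the lower ones. In C56BL6 cells 1 was lower (Usp28, -0.47) and 1 higher, Atr again, at 0.39. Of all genes 26.5% were called in that C56BL6 comparison, in either direction. In passaged against untreated cells 8 were higher in C56BL6, 3 in wild and 2 in A. cahirinus cells, Mdc1 by 0.96 and 0.99 in the mice. Of all genes 24.2%, 5.51% and 12.1% were higher in these 3 comparisons, so the A. cahirinus count was near the background. With the block and without number 1, 5 were higher in wild cells against 6.8% of all genes, and Mdc1 by 0.92.

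Alternative end joining uses short homologies and PARP1. All 7 listed genes were higher in passaged than in untreated C56BL6 cells, and 3 in wild (6 with the block) and 2 in A. cahirinus. The shares of all genes higher were 24.2%, 5.51% (15.1% with the block) and 12.1%. With the block and without number 1, 4 were higher in wild cells against 6.8% of all genes. Polq, its polymerase, was higher by 2.89 on the log2 scale in C56BL6 and by 1.07 in A. cahirinus. In A. cahirinus Polq had log2 changes of -1.61 at 24 h and -2 at 12 d after 20 Gy, and Lig1 of -1.27 at 12 d, and all 3 passed the test. Among 9 accessory factors of end joining, Paxx, a paralog of XRCC4 that stabilizes Ku at ends, was lower in passaged cells, at -1.64 in C56BL6 and -1.24 in wild cells (-1.26 with the block and without number 1), and at -0.84 at 20 Gy in C56BL6 cells at 12 d. Of 5 shieldin genes and 53BP1 partners, Mad2l2, the shieldin subunit REV7, was lower at 12 d and 20 Gy in C56BL6 (-0.61) and A. cahirinus (-0.74). Of 6 genes of kinase maturation and related kinases, Mtor was higher (0.63) in C56BL6 cells at 12 d and 20 Gy. Telo2, which encodes a chaperone subunit needed for stable ATM and DNA-PKcs, was lower there (-0.42). In A. cahirinus 0 genes of this list were called in that comparison, where 31.8% of all genes were. Without the block, 26.5% of all genes were called in C56BL6 cells at 12 d and 20 Gy. In passaged against untreated cells 49.6% were called in C56BL6 and 10.7% in wild cells. Counts of called genes are otherwise not given for the accessory, shieldin and kinase lists. The single genes named from them are therefore not a result about these lists.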

How the data were processed

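RNA was measured in 84 libraries of primary skin fibroblasts. The values are read counts per gene deposited by the authors, per the file headers made with featureCounts 2.0.3, with a gene length column of another unit, in bp of exon, in the deposited tables. Trim Galore and HISAT2 are named in the submitters' processing notes, with no versions given in the sources used here. Per the file headers, the mouse table uses GRCm39 with Ensembl release 108 and the A. cahirinus table the AcoCah2 annotation, grouped by gene name. The counting commands in the headers set no strand option, so reads of a gene and of an antisense neighbour cannot be told apart. Of 56980 mouse identifiers 56236 were matched to a symbol with GENCODE, and 18109 symbols stood once in each table.

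Counts were tested with edgeR 4.0.16 (R 4.3.3): filterByExpr, TMM scaling, the quasi-likelihood test and Benjamini-Hochberg adjustment over all genes tested, called at an adjusted p under 0.05, on the 2 groups compared. Population differences were interaction terms over symbols common to both tables. CPM uses TMM-scaled totals. Scores are means of log2(CPM + 1). Alternatives were DESeq2 1.42.0, RLE scaling, no expression filter, all groups of a time in one fit, the replicate number as a block, and leaving out each replicate. Blocks rest on animal codes in the library names. Same-numbered libraries deviated together in all 24 comparisons (mean correlation 0.559 to 0.924, other numbers -0.304 to -0.115). No 2 libraries of a group were alike within sampling noise (chi-square per degree of freedom 7.96 to 573 over 126 pairs). The p-values measure the spread between these samples. A count of 3 corresponds to 0.0568 to 0.172 CPM over the libraries. The fits were tested on simulated data. For A. cahirinus at 12 d and 20 Gy, of 50 genes changed 1.5-fold and 50 changed 2-fold among 13542, edgeR called 4 and 44 without the block and 27 and 49 with it. Of all 148 and 186 calls, 0 and 10 were false. The real comparison had 4287 calls without the block, so far fewer genes changed in the simulation and these shares do not give the power in the data. Overlapping exons make part of some counts uncertain: 3.83% of Dclre1c bases are shared with Suv39h2, 7.69% of Xrcc6 with Desi1 and 2.66% of Xrcc4 with Tmem167 in the mouse. In A. cahirinus 8.22% of Dclre1c bases are shared with Suv39h2 and 19.5% of Trp53bp1 with Tubgcp4. No bases of Xrcc6 or Xrcc4 are shared there. All 10 genes are named. Of each pathway list at most 3 genes per comparison are named, those with the largest change among those past the threshold. Members and lists were chosen with earlier results of these data known.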

Additional observations from a re-analysis of the deposited data

Results flagged for a closer look

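In 16 of 210 groups of 4 libraries, 1 library lay far from the other 3, where chance gives about 1 in 20. In each the gap to the nearest library exceeded, by Dixon's test, the critical share of the group's whole range. In C56BL6 cells these were Dclre1c at 24 h and 10 Gy in replicate 1 (8.56 CPM, others 6.85 to 7.06), Lig4 at 24 h untreated in replicate 3 (15.9, others 14.3 to 14.5), and Lig4 at 12 d and 20 Gy in replicate 4 (15.1, others 16.7 to 17). Xrcc4 at 12 d untreated was low in replicate 1 (8.36 CPM, others 12.1 to 12.6), and Xrcc6 in passaged cells was high in replicate 1 (48.5 CPM, others 35.6 to 36.5).

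In wild cells Nhej1 and Xrcc4 at 24 h and 10 Gy were high in replicate 1, the library that stood apart by gene length (10.2 CPM, others 4.19 to 5.15, and 14.8 CPM, others 7.02 to 8.23). Prkdc at 24 h untreated was high in replicate 4 (19.6 CPM, others 13.9 to 14.6) and Rif1 at 24 h and 20 Gy in replicate 3 (23.2 CPM, others up to 16.2). At 12 d and 10 Gy replicate 2 was high in Dclre1c (11.6 CPM, others 5.28 to 6.26) and in Trp53bp1 (55.8 CPM, others 37.2 to 39.9). Nhej1 at 12 d untreated was low in replicate 4 (2.49 CPM, others 3.97 to 4.11).

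In A. cahirinus Lig4 at 24 h was high in untreated replicate 4 (14.5 CPM, others 11.4 to 11.9) and low at 20 Gy in replicate 1 (10.6 CPM, others 13.2 to 13.5). Nhej1 in passaged cells was high in replicate 3 (4.46 CPM, others 3.09 to 3.21), and Prkdc at 12 d and 20 Gy was low in replicate 2 (8.68 CPM, others 11.4 to 11.8).

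Between A. cahirinus and C56BL6 cells, 8 changes differed by the interaction test with or without the replicate block. The differences without the block were, for 20 Gy at 24 h, -0.44 on the log2 scale for Prkdc and -0.37 for Rif1. For 20 Gy at 12 d they were -0.56 for Atm, -0.48 for Prkdc, -0.33 for Xrcc5 and -1.16 for Rif1. For passaged against untreated cells they were -0.64 for Atm and -1.08 for Rif1. Between A. cahirinus and wild cells the change of Rif1 at 12 d and 20 Gy differed by -0.81, and the changes in passaged cells by -0.53 for Atm, -0.35 for Trp53bp1 and -0.69 for Rif1. In these last 4 the difference passed with the block and not without it.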

How the results depend on the processing

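None of the 23 values called without the block changed direction under any alternative run. In 115 refits other than leaving out libraries 3 calls were lost, and in 106 refits that left out libraries 45 were. Of the 317 values not called, 44 of 1565 and 178 of 1494 such refits changed direction, the latter at log2 values of up to 0.315, so the sign of small uncalled values is not firm. Leaving out wild number 1, A. cahirinus number 2 or C56BL6 number 1 with the block was added after seeing the data. Without replicate 2, all genes called in A. cahirinus at 12 d went from 62 to 1985 between doses and from 379 to 1393 at 10 Gy. RLE moved the median of all genes by -0.0169 to 0.0342. No paired analysis was possible for wild against C56BL6 untreated cells, because they come from different animals.

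With the replicate block, which pairs libraries of an animal, the number of members called went in C56BL6 cells from 0 to 1 at 24 h and 20 Gy, from 1 to 2 at 12 d and 20 Gy, and from 0 to 1 at 12 d and 10 Gy. In wild cells it went from 0 to 2 at 24 h and 20 Gy, from 1 to 6 in passaged against untreated cells and from 2 to 5 in 20 Gy against passaged cells. At 24 h and 10 Gy it was 2 with the block and without number 1, an alternative chosen after seeing the data. In A. cahirinus it went from 0 to 2 at 24 h and 10 Gy, from 3 to 6 at 12 d and 20 Gy, from 0 to 3 at 12 d and 10 Gy, from 0 to 1 between doses at 12 d, from 0 to 5 in passaged cells and from 3 to 5 in 20 Gy against passaged cells. Differences between A. cahirinus and C56BL6 went from 0 to 2 (24 h) and 1 to 4 (12 d), and between A. cahirinus and wild cells from 0 to 1 (12 d) and 0 to 3 (passaged). The share of all genes called rose with the block too. It went from 0.0895% to 17.6% in C56BL6 cells at 24 h and 20 Gy and from 10.7% to 31.9% in wild passaged against untreated cells. These rises are therefore not a result about the members.

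Fitting all groups of a time together gave 2 for C56BL6 at 12 d and 20 Gy, 2 for wild passaged cells, 1 each for A. cahirinus at 10 Gy (24 h and 12 d) and passaged, and 1 in place of 2 for the passage difference between A. cahirinus and C56BL6. DESeq2 gave 3 for passaged wild and 3 for passaged A. cahirinus cells, 1 each for A. cahirinus at 10 Gy (24 h and 12 d) and 1 for the passage difference between A. cahirinus and wild cells. RLE gave 1 for passaged A. cahirinus cells, and no filter gave 0 for C56BL6 at 12 d and 20 Gy.

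Leaving out 1 replicate number gave 0 to 1 (C56BL6 12 d 10 Gy), 0 to 2 (C56BL6 12 d 20 Gy), 1 to 5 (C56BL6 passaged), 2 to 5 (C56BL6 20 Gy against passaged), 0 to 1 (wild passaged) and 0 to 2 (wild 20 Gy against passaged). In A. cahirinus it gave 0 to 1 (24 h 20 Gy, 24 h 10 Gy and 12 d between doses), 1 to 5 (12 d 20 Gy) and 2 to 5 (20 Gy against passaged), and for differences from C56BL6 0 to 1 (12 d and passaged). The causes were not tested. Shares of all genes called are not given for these alternatives, so such counts describe the processing and are not a result about the members. The lowest level of a member in any library was 0.613 CPM, for Dclre1c, above what 3 counts give.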

Other observations

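Several members share a start region with a gene read in the other direction. In the mouse annotation Lig4 and Abhd13 start 21 bp apart, Atm and Npat 307, Prkdc and Mcm4 466, and Xrcc4 and Tmem167 485. Mcm4, a subunit of the replicative helicase, had log2 changes of 1.36 in passaged against untreated C56BL6 cells and -1.94 at 12 d and 20 Gy in A. cahirinus, both called without the block, beside 0.51 (called) and -0.27 (called with the block alone) for Prkdc. In C56BL6 cells at 12 d and 20 Gy Mcm4 was lower (-0.52, adjusted p 0.0318 by edgeR). Prkdc averaged 13.75 CPM there against 12.13 CPM untreated and was not called. At 24 h and 20 Gy in A. cahirinus Mcm4 was at -1.4 (adjusted p 0.0284 by edgeR), and Prkdc was not called. Npat, a regulator of histone genes, was higher in passaged C56BL6 cells by 0.35, beside 0.53 for Atm, and in passaged A. cahirinus cells by 0.26, beside -0.1 for Atm, which was not called. Abhd13 was lower in C56BL6 cells at 12 d and 20 Gy with the block (-0.22, adjusted p 0.0248), where Lig4 was higher by 0.32.

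The genes whose levels were most like each member over the 28 libraries of a population, after centring on the mean of each time, were named by the mean Pearson's r over the 3 populations among 10951 symbols. They were Anapc1 (0.947), Dcaf1 (0.93) and Suz12 (0.914) for Rif1, Dido1 (0.894) for Atm, Cdk4 (0.914) for Xrcc6, Dicer1 (0.842) for Prkdc and Yeats2 (0.859) for Trp53bp1. The most similar gene of Nhej1, Gemin7, reached 0.529. Without the wild library that stood apart, the wild r went from 0.942 to 0.861 for Anapc1, from 0.975 to 0.9 for Dido1, from 0.901 to 0.922 for Cdk4, from 0.946 to 0.812 for Yeats2 and from 0.706 to 0.101 for Gemin7. These libraries share animals and groups, so the correlations are descriptions.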
